A study of Rattus norvegicus with 10 samples.

Results

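The 33 genes described here carry fatty acids into the heart muscle cell and through mitochondrial beta-oxidation. They were chosen by name, with earlier results of these data known. The list runs from the entry of fatty acids at the vessel wall to the hand-over of electrons to ubiquinone. All 33 were matched to a probe set among the 10688 genes tested. Their transcripts were measured in the left ventricle of male Sprague-Dawley rats of 250 to 300 g, 3 days after gene transfer, on 10 Affymetrix rat whole-genome arrays. The GATA-4 group of 5 samples received the gene for GATA-4, a transcription factor of the developing and adult heart, and the LacZ group of 5 samples received the bacterial beta-galactosidase gene as the control. All animals in both groups therefore underwent a gene transfer, and no group without one was analysed here. The sources used here do not give the rats' age, the vector, the promoter driving the transferred genes or the site of delivery. The sample labels name no animals, so the p-values measure the spread between these samples.

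The adult heart draws most of its energy from long-chain fatty acids. Lipoprotein lipase frees them from circulating triglyceride, CD36 and fatty acid binding proteins bring them in, and acyl-CoA synthetases trap them as acyl-CoA. The carnitine shuttle then moves the acyl groups into mitochondria, where repeated rounds of dehydrogenation, hydration, a second dehydrogenation and thiolysis shorten them. Electrons from the acyl-CoA dehydrogenases pass through the electron-transfer flavoprotein, made of the Etfa and Etfb products, to ubiquinone by way of Etfdh. Nuclear receptors of the PPAR and ERR families with the coactivator PGC-1 are known to drive many of these genes in heart muscle.

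In the main fit to all 10 arrays, the electron-transfer flavoprotein route of Etfa, Etfb and Etfdh was the role in which every gene fell. The start regions of these 3 genes are therefore shown with that of Eci2, which holds the nuclear receptor core site AGGTCA. The windows, from RefSeq on assembly GRCr8, run from 250 bases before the annotated start to 50 bases after it, 5′ to 3′ in the direction of the gene. Capitals mark GC boxes, whose letters are GGGCGG, together with CCAAT boxes and any GATA site, and the core site AGGTCA, each on either strand. Etfa lies at chr8:64787916-64788215 (- strand), Etfb at chr1:102988249-102988548 (+ strand), Etfdh at chr2:167060709-167061008 (- strand) and Eci2 at chr17:30075516-30075815 (+ strand).
Etfa: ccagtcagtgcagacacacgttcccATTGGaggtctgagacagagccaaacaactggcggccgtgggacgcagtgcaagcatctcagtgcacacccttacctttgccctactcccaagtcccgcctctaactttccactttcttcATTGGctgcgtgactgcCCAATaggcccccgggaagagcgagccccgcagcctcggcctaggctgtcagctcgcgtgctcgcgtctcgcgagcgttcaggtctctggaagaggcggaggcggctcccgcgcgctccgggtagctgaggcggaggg
Etfb: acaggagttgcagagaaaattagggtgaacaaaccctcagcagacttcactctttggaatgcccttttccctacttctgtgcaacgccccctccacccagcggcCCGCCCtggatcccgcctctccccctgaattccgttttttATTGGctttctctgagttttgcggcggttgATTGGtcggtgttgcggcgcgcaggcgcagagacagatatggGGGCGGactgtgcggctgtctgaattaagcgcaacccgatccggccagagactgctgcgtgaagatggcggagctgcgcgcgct
Etfdh: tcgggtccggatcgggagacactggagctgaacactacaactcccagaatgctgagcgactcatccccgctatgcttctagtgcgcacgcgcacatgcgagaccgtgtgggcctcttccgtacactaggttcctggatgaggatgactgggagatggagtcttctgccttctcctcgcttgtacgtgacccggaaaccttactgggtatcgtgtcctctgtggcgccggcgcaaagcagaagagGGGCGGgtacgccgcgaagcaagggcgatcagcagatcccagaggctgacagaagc
Eci2: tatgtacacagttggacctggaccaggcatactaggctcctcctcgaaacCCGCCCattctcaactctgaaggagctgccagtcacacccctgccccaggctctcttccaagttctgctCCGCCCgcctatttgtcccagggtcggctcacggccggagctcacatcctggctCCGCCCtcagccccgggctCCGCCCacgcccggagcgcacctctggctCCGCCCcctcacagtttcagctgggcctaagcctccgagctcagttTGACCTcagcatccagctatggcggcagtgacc
Etfa held 3 CCAAT boxes and no GC box, Etfb 2 of each, Etfdh 1 GC box and Eci2 5 GC boxes beside its 1 AGGTCA site. No TATA box (TATAAA) and no GATA site (searched on either strand as AGATAA, with its variant AGATAG, and in the second form TGATAA, with its variant TGATAG) lay in these windows.

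Over all members, 26 had an entry among the 33469 promoter windows. A GC box lay in 17 of the 26, against 33.1% of all windows, a CCAAT box in 10 against 37.5%, and AGGTCA in 8 against 16.2%. GATA sites lay in 2 of the 26, Cpt1a and Hadhb, against 30.3% of all windows, and a TATA box in 2 against 14.2%. All 7 members that fell had a window, and the nuclear receptor core site lay in 1 of the 7, Eci2, which was printed above for that site. A GC box lay in 5 of the 7, a CCAAT box in 3, a GATA site in 0 and a TATA box in 0. The median GC content was 60.2% for the members and 51.7% for all windows. The motif shares were not adjusted for this difference, and the 33469 windows were not limited to genes tested here. The longer ERR element TCAAGGTCA (0.433% of all windows), the PPAR direct repeat of AGGTCA (0.0538%) and the palindromic NRF1 element (0.852%) lay in none of the 26. AGGTCA is a part of the ERR and PPAR sequences, so those searches overlap. Hadha and Hadhb, the 2 subunits of the trifunctional protein, are transcribed in opposite directions on chromosome 6, and 200 bases of their windows are shared. These matches describe letters in short windows, and a window without a match says nothing of binding elsewhere.

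The values are probe set intensities, taken to log2 and quantile normalized, which gives the 10 arrays the same distribution. A difference is the GATA-4 mean minus the LacZ mean on that scale. Genes were called changed, that is risen or fallen, at a Benjamini-Hochberg adjusted p under 0.05 in a limma fit over all 18625 probe sets above the intensity filter. This fit to all 10 arrays is the main fit. Intensities of different probe sets cannot be ranked against each other, so levels are compared between arrays for the same gene, and brightness serves only to set genes beside others of like signal. The 2%-trimmed mean signal before normalization was 143 on GATA-4 array 1 and between 250.2 and 329.9 on the remaining 9, and results are given with and without that dim array. Gata4 itself, the check of the labels, had a mean of 11.44 ± 0.14 in the GATA-4 group against 10.65 ± 0.13 in controls (SD, n = 5 each), with no overlap and a limma adjusted p of 0.00131.

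Of the 33 fatty acid genes 7 fell with GATA-4, 0 rose and 26 did not pass, where 2.66% of all genes tested fell and 3.71% rose. The genes that fell were Etfb, Etfdh, Eci2, Acsl1, Slc25a20, Hadh and Etfa, each by 0.26 to 0.32 on the log2 scale. A difference below 0 was seen in 30 of the 33, against 52.6% of all genes. The median difference was -0.20 for the members and -0.02 for all genes. In limma without adjustment, 15 members had a p under 0.05, 0 of them higher with GATA-4. Of all genes tested, 12.2% were lower at that level, and 2585 of 10688 passed it in either direction. By signal 30 members lay in the brightest 25% of genes, where 5.95% of genes fell and 58.2% had a difference below 0. An unadjusted p under 0.05 in either direction was held by 881 of the 2672 genes there and by 14 of the 30 members. The 7 fallen members were all among those 30. Because the list was chosen with earlier results of these data known, these shares describe it and are no test of it.

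In 6 of the 33 members all 5 GATA-4 arrays lay below all 5 LacZ arrays, which held for 5.1% of all genes and 9.47% of the brightest 25%. The opposite arrangement, all GATA-4 arrays above all LacZ arrays, was seen in 0 members and 4.56% of all genes. All 6 were among the 7 that fell, and Etfa was the exception. For Etfa, whose groups overlap, an exact two-sided permutation test over the 252 assignments of the arrays gave p = 0.0238.

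**Figure D1:**
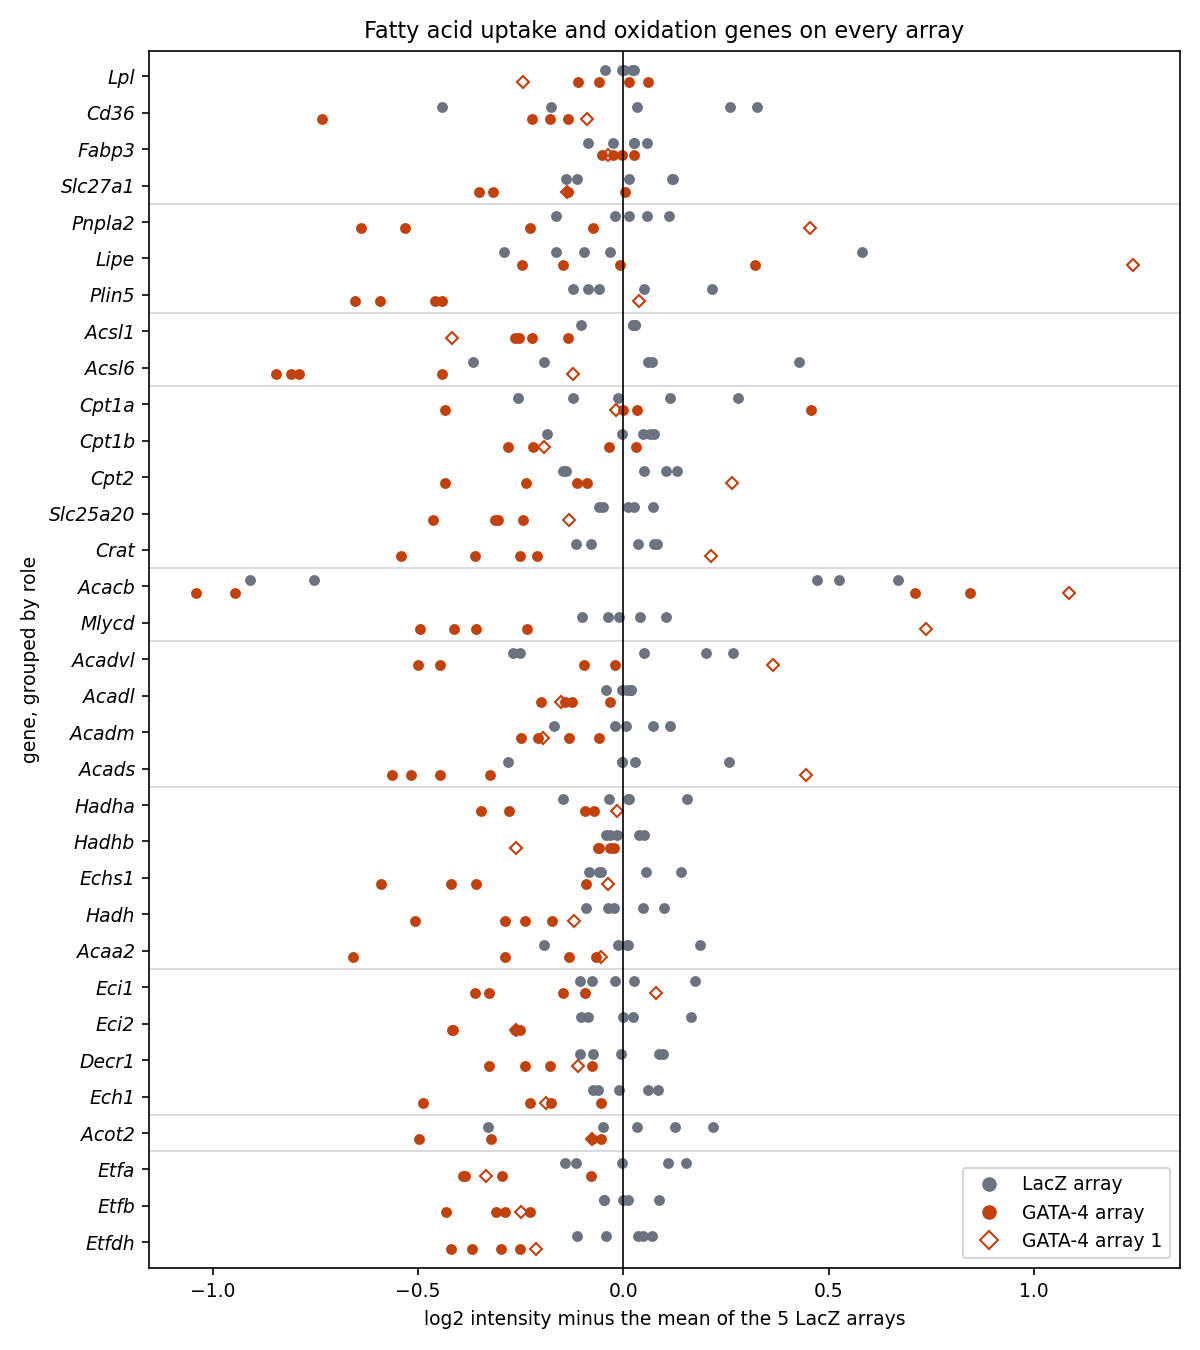
Each row is a gene, grouped by role from uptake at the top to electron transfer at the bottom, and each point an array, plotted as log2 intensity minus the mean of the 5 LacZ arrays (grey LacZ, orange GATA-4, open diamond GATA-4 array 1). Most orange points lie left of 0, while the open diamond lies right of every LacZ array for 8 genes, Lipe and Mlycd among them.

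How firmly the 7 genes were called depended on single arrays. Without GATA-4 array 1, the dim array, 17 members fell, the same 7 among them. The others were Pnpla2, Plin5, Acsl6, Crat, Mlycd, Acads, Echs1, Eci1, Decr1 and Ech1. The share of all genes that fell also went up, from 2.66% to 8.86%. Without GATA-4 arrays 2, 3, 4 and 5 in turn the counts were 6, 2, 4 and 4, and without LacZ arrays 1 to 5 they were 3, 6, 1, 3 and 1, while 0.187% to 2.22% of all genes fell in these 9 fits. No member rose in any of these 10 fits. Etfb fell in all 10, Etfdh in 8, Acsl1 and Eci2 in 6 each, Etfa in 3, and Slc25a20 and Hadh in 1 each. The sign of these 7 differences was the same in all 10.

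The electron-transfer flavoprotein route gave the most uniform result of the main fit, with 3 of 3 genes fallen. Without the dim array this did not set the route apart. Acsl1 and Acsl6, the activation genes, then fell as well, and so did Eci1, Eci2, Decr1 and Ech1, the auxiliary enzymes for unsaturated fatty acids. Etfb, the beta subunit of the flavoprotein, read 12.59, 12.63, 12.65, 12.72 and 12.59 on LacZ arrays 1 to 5 and 12.39, 12.41, 12.35, 12.20 and 12.32 on GATA-4 arrays 1 to 5. Every GATA-4 array lay below every LacZ array, the dim array among them. The mean went from 12.63 ± 0.06 to 12.33 ± 0.08 (SD, n = 5), and the difference of -0.30 (SE 0.05) had a limma adjusted p of 0.00983. Over the 22 alternatives to the processing it ran from -0.46 to -0.25.

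Etfdh encodes the ubiquinone oxidoreductase that takes electrons from the flavoprotein. It read 11.85, 11.78, 11.94, 11.93 and 11.97 on the LacZ arrays and 11.68, 11.60, 11.53, 11.64 and 11.48 on the GATA-4 arrays. Again the groups did not overlap. The difference was -0.31 (SE 0.06, limma adjusted p = 0.0174), and Etfdh missed the threshold without LacZ array 3 or LacZ array 5, with an adjusted p of at most 0.0672.

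Etfa, the alpha subunit that holds the FAD cofactor with Etfb, read 11.91, 11.78, 12.03, 11.80 and 12.07 with LacZ and 11.59, 11.84, 11.62, 11.53 and 11.53 with GATA-4. GATA-4 array 2 lay above LacZ arrays 2 and 4, and the other 4 GATA-4 arrays lay below all LacZ arrays. Its difference of -0.30 (SE 0.08) was close to that of Etfb, with a limma adjusted p of 0.0477. The call was lost without LacZ array 1, 3, 4 or 5 or without GATA-4 array 3, 4 or 5, where the adjusted p reached 0.139. The promoter windows printed above show no motif among those searched that all 3 genes hold.

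**Figure D2:**
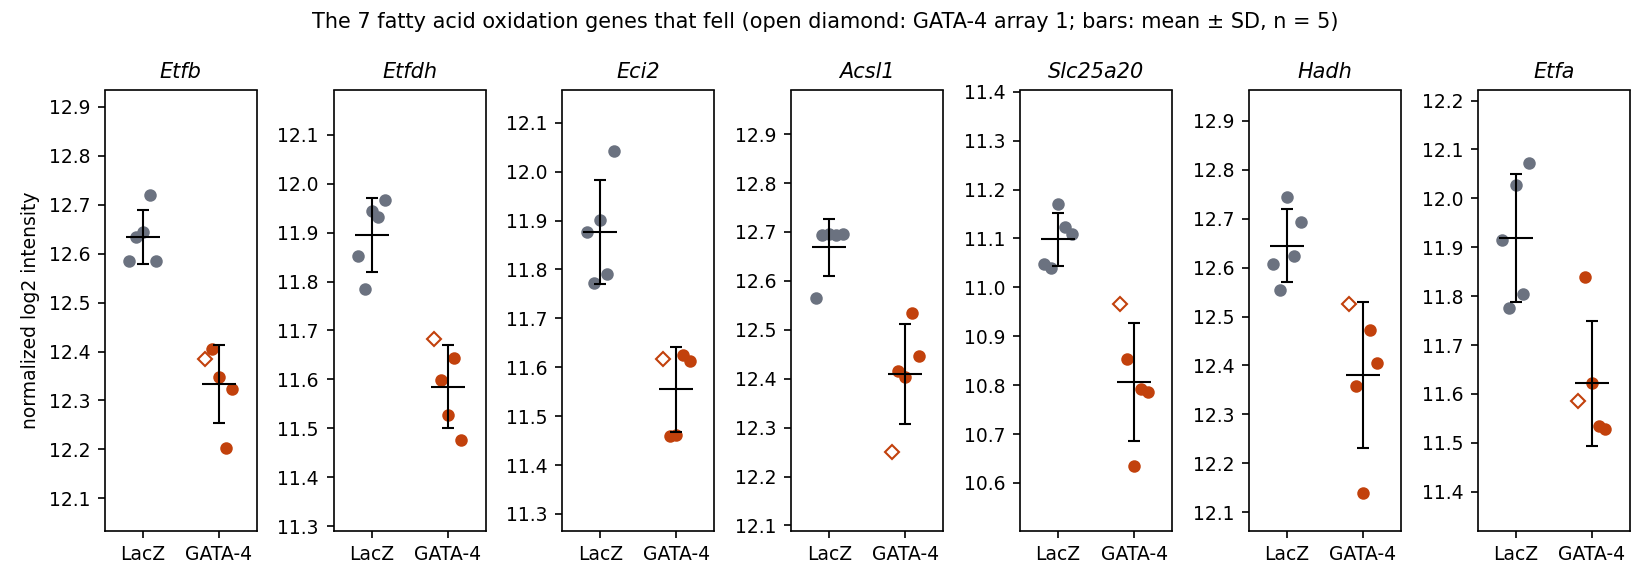
Normalized log2 intensity of the 7 genes that fell, ordered by p-value, with a point for each array (open diamond GATA-4 array 1) and bars for the mean ± SD of 5 arrays; every panel spans the same log2 range. For all but Etfa the GATA-4 points lie below all LacZ points, for Etfb at 12.20 to 12.41 against 12.59 to 12.72.

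Among the genes that activate fatty acids, Acsl1, the main long-chain acyl-CoA synthetase of the heart, fell. Its probe set read 12.57, 12.69, 12.70, 12.69 and 12.70 on the LacZ arrays and 12.25, 12.42, 12.40, 12.53 and 12.45 on the GATA-4 arrays. The groups were apart by a narrow margin, 12.57 on LacZ array 1 against 12.53 on GATA-4 array 4. The difference was -0.26 (SE 0.06, limma adjusted p = 0.024), with a highest adjusted p of 0.0755 when LacZ array 3, 4 or 5 or GATA-4 array 3 was left out. A second Acsl1 probe set differed by -0.21 and did not pass (adjusted p = 0.332). Over the 9 members with more than 1 probe set, 7 further probe sets were tested and 0 passed, where 2.27% of all probe sets fell and 3.04% rose.

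Acsl6, a synthetase best known from brain, had the largest difference of all members. Its probe set was dim, with a mean log2 intensity of 6.41, at percentile 14.4 of the genes tested. It read 7.14, 6.52, 6.78, 6.34 and 6.77 with LacZ and 6.59, 6.27, 5.92, 5.90 and 5.86 with GATA-4. All GATA-4 arrays but the dim array lay below the LacZ arrays. The difference of -0.60 (SE 0.19) did not pass, with a limma adjusted p of 0.0816, and without the dim array Acsl6 was among the 17 members that fell.

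The carnitine shuttle gave 1 fallen gene of 5. Slc25a20, the carrier that exchanges acylcarnitine for carnitine across the inner mitochondrial membrane, read 11.05, 11.04, 11.17, 11.12 and 11.11 with LacZ and 10.97, 10.85, 10.64, 10.79 and 10.79 with GATA-4. The dim array was the highest of the GATA-4 group and still lay below all LacZ arrays. The difference was -0.29 (SE 0.07, limma adjusted p = 0.0374). With arrays left out in turn, Slc25a20 passed only when GATA-4 array 1 was the array removed, and the adjusted p otherwise reached 0.119. Cpt1b, the muscle form of the outer-membrane transferase that commits fatty acids to oxidation, differed by -0.14 (95% interval -0.29 to 0.01), and Cpt2, its partner on the inner membrane, by -0.12 (-0.37 to 0.12). Cpt1a, the liver form, differed by 0.01 (-0.32 to 0.33), and a second Cpt1a probe set by -0.01. Crat, which buffers short-chain acyl-CoA as acylcarnitine, differed by -0.23 (-0.48 to 0.02). None of these 4 passed in the main fit, and Crat fell with array weights and once the dim array was left out.

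Of the chain-shortening enzymes after the first dehydrogenation, 1 of 5 fell in the main fit, and Echs1 fell too without the dim array. Hadh, the short-chain 3-hydroxyacyl-CoA dehydrogenase, read 12.61, 12.55, 12.74, 12.62 and 12.69 with LacZ and 12.53, 12.36, 12.14, 12.47 and 12.41 with GATA-4. The groups did not overlap, with GATA-4 array 3 the lowest and the dim array the highest of its group. The difference was -0.26 (SE 0.07, limma adjusted p = 0.0463), and among the leave-one-out fits it passed only without GATA-4 array 1, with adjusted p-values up to 0.131 otherwise. Echs1, the short-chain enoyl-CoA hydratase, differed by -0.30 (95% interval -0.52 to -0.08, adjusted p = 0.107) and Acaa2, the mitochondrial thiolase, by -0.24 (-0.47 to -0.01, adjusted p = 0.212). The trifunctional protein genes with the shared start region, Hadha and Hadhb, differed by -0.16 (-0.33 to 0.00) and -0.09 (-0.19 to 0.02) and did not pass.

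The 4 auxiliary enzymes for unsaturated fatty acids all had differences below 0. In the main fit 1 of them fell, and without the dim array all 4 fell. Eci2, an enoyl-CoA isomerase of mitochondria and peroxisomes, read 11.88, 11.77, 11.90, 11.79 and 12.04 with LacZ and 11.62, 11.46, 11.46, 11.63 and 11.61 with GATA-4. Every GATA-4 array lay under every LacZ array, and the dim array sat within its group. The difference was -0.32 (SE 0.07, limma adjusted p = 0.0213), the largest among the 7 that fell, with an adjusted p up to 0.0735 when LacZ array 1, 3 or 5 or GATA-4 array 3 was left out. Decr1, the dienoyl-CoA reductase, differed by -0.19, Ech1, a dienoyl-CoA isomerase, by -0.23 and Eci1, the mitochondrial enoyl-CoA isomerase, by -0.17, with adjusted p-values of 0.109, 0.0877 and 0.272.

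None of the 4 acyl-CoA dehydrogenases, which open each round of oxidation, passed the threshold in the main fit, and Acads fell without the dim array. Acadl, for long chains, differed by -0.13 (95% interval -0.21 to -0.05, limma adjusted p = 0.0701) and Acadm, for medium chains, by -0.17 (-0.29 to -0.04, adjusted p = 0.107). Both intervals lie below 0, and all 5 GATA-4 arrays lay below the LacZ mean for each. Acads, for short chains, differed by -0.28 (-0.65 to 0.09) and Acadvl, for very long chains, by -0.14 (-0.48 to 0.21). Acads read 11.11 on the dim array, above the 10.38 to 10.92 of the LacZ group, while the remaining GATA-4 readings were 10.10 to 10.34.

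Uptake genes held no change that passed. Lpl, the lipase that releases fatty acids at the vessel wall, differed by -0.07 (95% interval -0.18 to 0.05), and Fabp3, the fatty acid binding protein of heart, by -0.02 (-0.10 to 0.06). These are narrow intervals, although both genes, with Acadl and Hadhb, lay above a log2 intensity of 13 where the highest value on any array was 13.97. The differences of these 4 brightest members ran from -0.13 to -0.02, and how far signal near the top of the scale compresses differences was not tested. Cd36, the main fatty acid translocase, varied more, from 11.61 to 12.38 with LacZ and from 11.32 to 11.96 with GATA-4, and the groups overlapped (difference -0.27, interval -0.60 to 0.06). Slc27a1, a fatty acid transport protein, differed by -0.19 (-0.39 to 0.02).

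Of the 3 lipid droplet genes none passed in the main fit, and all 3 read higher on the dim array than on any other GATA-4 array. Plin5, the droplet coat protein that ties droplets to mitochondria, read 9.85, 9.68, 9.71, 9.74 and 10.02 with LacZ and 9.84, 9.34, 9.14, 9.36 and 9.21 with GATA-4. The dim array lay among the LacZ arrays and the other 4 below all of them. The difference of -0.42 (SE 0.13) missed the threshold with a limma adjusted p of 0.0759, and Plin5 fell under median centring, with array weights and without the dim array. Pnpla2, the first lipase of stored triglyceride, differed by -0.20 with all arrays. It fell without the dim array, where the Pnpla2 difference was -0.37 and the Plin5 difference -0.54 (limma adjusted p = 0.0347 and 0.00274).

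Lipe, the hormone-sensitive lipase, read 7.22, 7.29, 7.15, 7.90 and 7.03 with LacZ and 8.56, 7.07, 7.31, 7.17 and 7.64 with GATA-4. The positive difference of 0.23 (SE 0.26, limma adjusted p = 0.642) came with the dim array, the highest of the 10, and was -0.02 for the same probe set over the other 4. A second Lipe probe set differed by -0.19 with all arrays, and it is the brighter and so the one used once the dim array is left out, with a Lipe difference of -0.32 (adjusted p = 0.157). Lipe and Lpl are also abundant in fat cells. Of 8 fat cell markers on the array 2 were bright enough to be tested and 0 changed in limma. Fabp4, which vessel cells also make, differed by -0.24 (unadjusted p = 0.0331, adjusted p = 0.183) and Cfd, the secreted adipsin, by 0.01. The other 6, Adipoq, Plin1, Lep, Cidec, Pck1 and Adrb3, were too dim, with Adipoq at most 4.19 on any array against a filter level of 5.17. The summed intensity of the 8 markers was 2489 to 2973 with GATA-4 and 2644 to 3669 with LacZ. Most of that sum was Fabp4, at a mean log2 intensity of 11.27 against 8.69 for Cfd. The part of fat cells in the Lipe and Lpl values was not tested.

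Acacb and Mlycd make and remove malonyl-CoA, the inhibitor of the carnitine shuttle. Acacb, the mitochondrial acetyl-CoA carboxylase, read 5.13, 6.41, 6.55, 6.35 and 4.97 with LacZ and 6.97, 4.84, 4.94, 6.73 and 6.59 with GATA-4. Values near 5 and values above 6 occurred in both groups, and the interval of the difference, -0.88 to 1.14, was the widest of the members. Mlycd differed by -0.15 (-0.56 to 0.26) with readings of 9.86 to 10.12 on GATA-4 arrays 2 to 5, all below the LacZ arrays, but 11.09 on array 1. The thioesterase gene Acot2, which splits acyl-CoA in the matrix, differed by -0.21, and its other tested probe sets by -0.21 and -0.14, none of which passed.

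**Figure D3:**
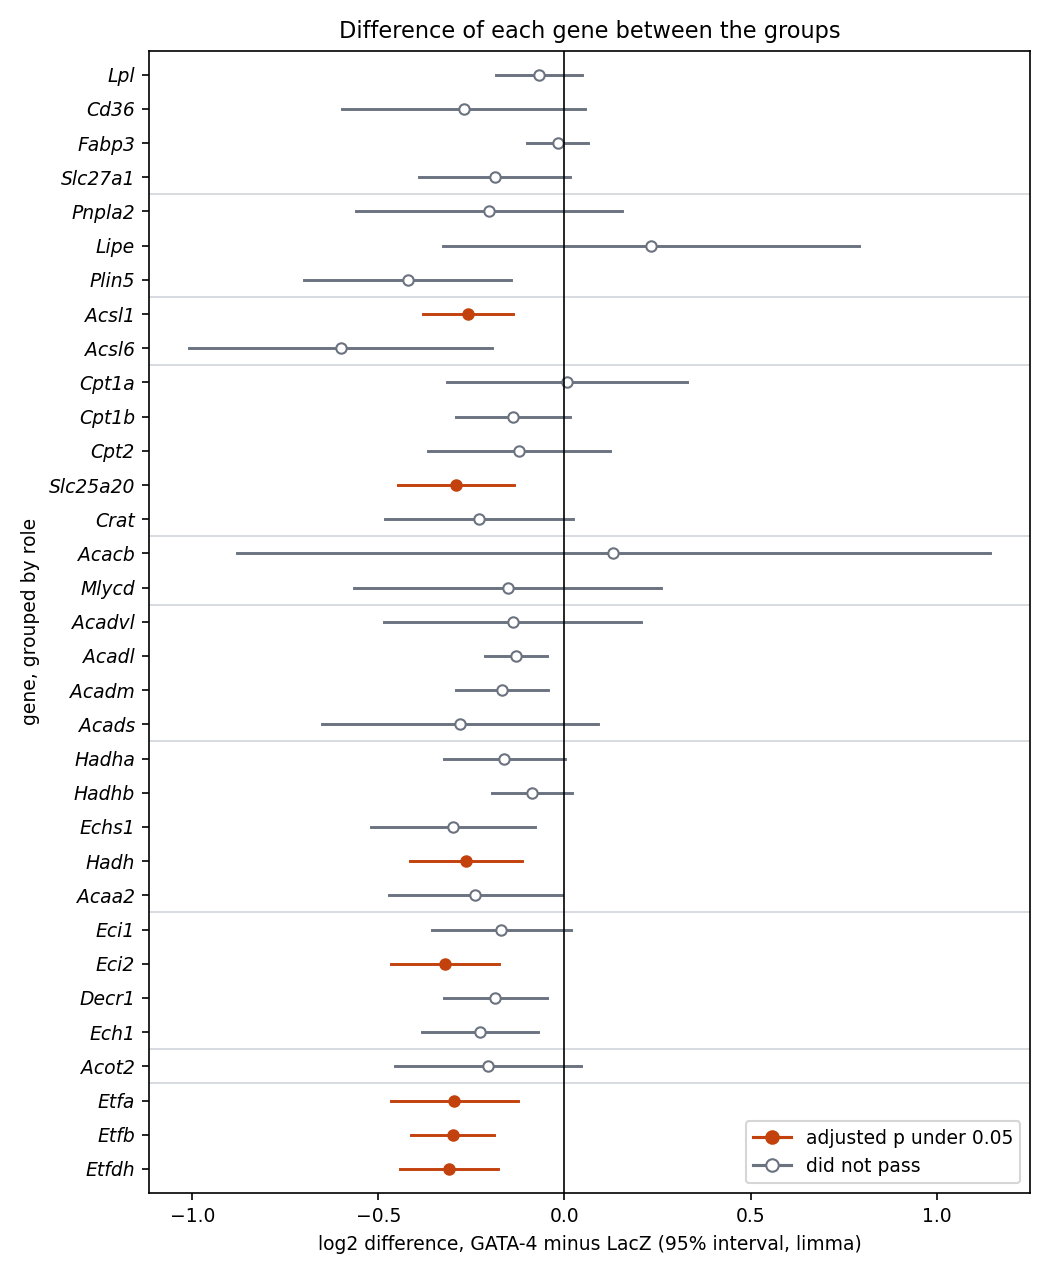
Log2 difference of each gene, GATA-4 minus LacZ, with its 95% interval from limma, grouped by role as in the plot of all arrays; filled orange points had an adjusted p under 0.05. Points lie left of 0 for 30 of 33 genes, and the widest interval is that of Acacb.

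The arrays differed in how far the members lay from the LacZ mean. The median deviation over the 33 genes was between -0.05 and 0.05 on the LacZ arrays. It was -0.25, -0.37, -0.15 and -0.20 on GATA-4 arrays 2 to 5 and -0.09 on the dim array. GATA-4 array 3 held the lowest value of the 10 arrays for 15 members. On the dim array the members were spread most widely, with 8 above all LacZ arrays (Pnpla2, Lipe, Cpt2, Crat, Acacb, Mlycd, Acadvl and Acads) and 14 below all of them. Over the other 4 GATA-4 arrays those 8 genes had differences of -0.46 to -0.02. The counts for array 3 and the dim array were made over the members only. Without the share over all genes they do not set the members apart from other genes.

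A piece of ventricle holds several cell types, and fewer muscle cells and less RNA per muscle cell cannot be told apart in it. Of 17 cardiomyocyte markers tested, Ttn (-0.27) and Casq2 (-0.31) fell and 0 rose, with a median of -0.06, and 3 had an unadjusted p under 0.05 in limma. Their summed intensity was 150941 to 163206 with GATA-4 and 159685 to 165633 with LacZ, and no marker was at the floor on all arrays. Many of these markers lay above a log2 intensity of 13, Myh6 (13.50) and Tnnt2 (13.65) among them. How far signal in that range compresses their differences and their sum was not tested. Of 12 macrophage markers 7 rose, Tyrobp, Csf1r and Cd14 among them, with sums of 20166 to 24799 against 14996 to 17392. With single arrays left out, Tyrobp and Csf1r passed in all 10 fits, Cd14 in 9 and the rest of the 7 in 2 to 10. Of 5 neutrophil markers tested 3 rose. Of these, Lcn2 passed in all 10 of those fits, Il1r2 in 3 and Csf3r in 2. The summed intensity of the neutrophil markers on the array overlapped, at 2643 to 8433 with GATA-4 and 1708 to 3201 with LacZ. The dim array had the lowest sum of the GATA-4 group. Endothelial (7 tested) and fibroblast (8 tested) markers had 0 that changed, with 1 and 2 at an unadjusted p under 0.05 in limma. The part of these shifts in the lower fatty acid genes was not tested.

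Genes next to the members in the pathway were read from lists that the members do not belong to. These lists too were chosen with earlier results of these data known, so their counts are descriptions. The list of electron carriers and the ubiquinone link holds ubiquinone genes together with Flad1, Slc25a32 and Etfbkmt. It had differences below 0 in 13 of 13 genes, and 4 fell with a median of -0.31. Coq9, a lipid-binding protein of the ubiquinone synthesis complex, fell by 0.29 (limma adjusted p = 0.0108) and passed with any single array removed. Coq7 and Coq3, enzymes of its ring, and Pdss2, of its side chain, fell by 0.46, by 0.35 and by 0.46, and each passed in 3 or 4 of those fits. Groups did not overlap in 5 of the 13.

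Among 16 other synthetases and dehydrogenases 2 fell and 1 rose. Acat1, the thiolase of ketone and isoleucine breakdown, fell from 12.08 ± 0.05 to 11.71 ± 0.07 (SD, n = 5, limma adjusted p = 0.00644) and passed with each array left out. Acss1, the mitochondrial acetate-activating enzyme, fell by 0.30 (adjusted p = 0.0249). Acsl5, a synthetase of the same family as Acsl1, rose, from 9.25 ± 0.10 to 9.70 ± 0.17 (adjusted p = 0.0266), so Acsl1 and Acsl5 passed in opposite directions. With single arrays removed, Acss1 passed in 4 of 10 fits and Acsl5 in 3.

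In peroxisomes, where very long and branched chains are shortened, Amacr, a racemase for branched acyl-CoA, fell by 0.41 and Phyh, which begins phytanic acid breakdown, fell by 0.17, with limma adjusted p-values of 0.0404 and 0.0255. They were 2 of 13 genes tested, 0 rose, and they passed in 3 and 4 of the 10 fits. Of 13 genes of carnitine supply, thioesterases and fatty acid synthesis, Fasn, the cytosolic fatty acid synthase, rose from 7.57 ± 0.21 to 8.33 ± 0.25 (adjusted p = 0.0136) and passed with each array left out. Acot13, a thioesterase, fell by 0.34 and passed in 1 of those fits. Slc27a3, an acyl-CoA synthetase of the fatty acid transport protein family, rose by 0.66 (adjusted p = 0.024) as 1 of 12 genes of lipid uptake and binding, and passed in 7. Of 19 genes of triglyceride storage 0 changed in limma, with 5 at an unadjusted p under 0.05.

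Regulators of the pathway gave 2 falls among 21 genes tested. Klf15, a factor that drives lipid use in heart and muscle, read 10.67, 10.59, 10.79, 10.82 and 10.68 with LacZ and 10.40, 10.44, 9.92, 10.02 and 10.38 with GATA-4. Rxrg, a partner of the PPAR receptors, read 10.24, 10.20, 10.25, 10.51 and 10.30 against 10.10, 10.04, 9.72, 9.79 and 9.71. Both separated the groups without overlap, with differences of -0.48 and -0.43 and limma adjusted p-values of 0.0278 and 0.0314, and passed in 4 and 3 of the 10 leave-one-out fits. Ppara and Rxra, a fatty acid receptor and its partner, were too dim to be tested. Of 11 PPAR target genes outside the members 0 changed and 10 had a difference above 0, with a median of 0.13. The 1 gene at an unadjusted p under 0.05 was the 1 below 0, Vldlr, a lipoprotein receptor, which differed by -0.26 (limma adjusted p = 0.0598) with all GATA-4 arrays below all LacZ arrays. It was named after its values were seen. Angptl4, which blocks lipoprotein lipase and, like Vldlr, is also on the list of lipid uptake genes, had the highest of these differences at 0.94 and did not pass.

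Genes of glucose use moved in both directions, 4 up and 4 down of 22 tested. Aldoc, an aldolase, rose by 2.17, Slc2a1, the glucose transporter found in most cells, by 0.56 and Pgam1 by 0.22, while Pdhb, a subunit of pyruvate dehydrogenase, fell by 0.26. The median of that list was -0.03. Aldoc passed with each array left out, Pdhb in 7, Slc2a1 in 4 and Pgam1 in 3 of the 10 fits.

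**Figure D4:**
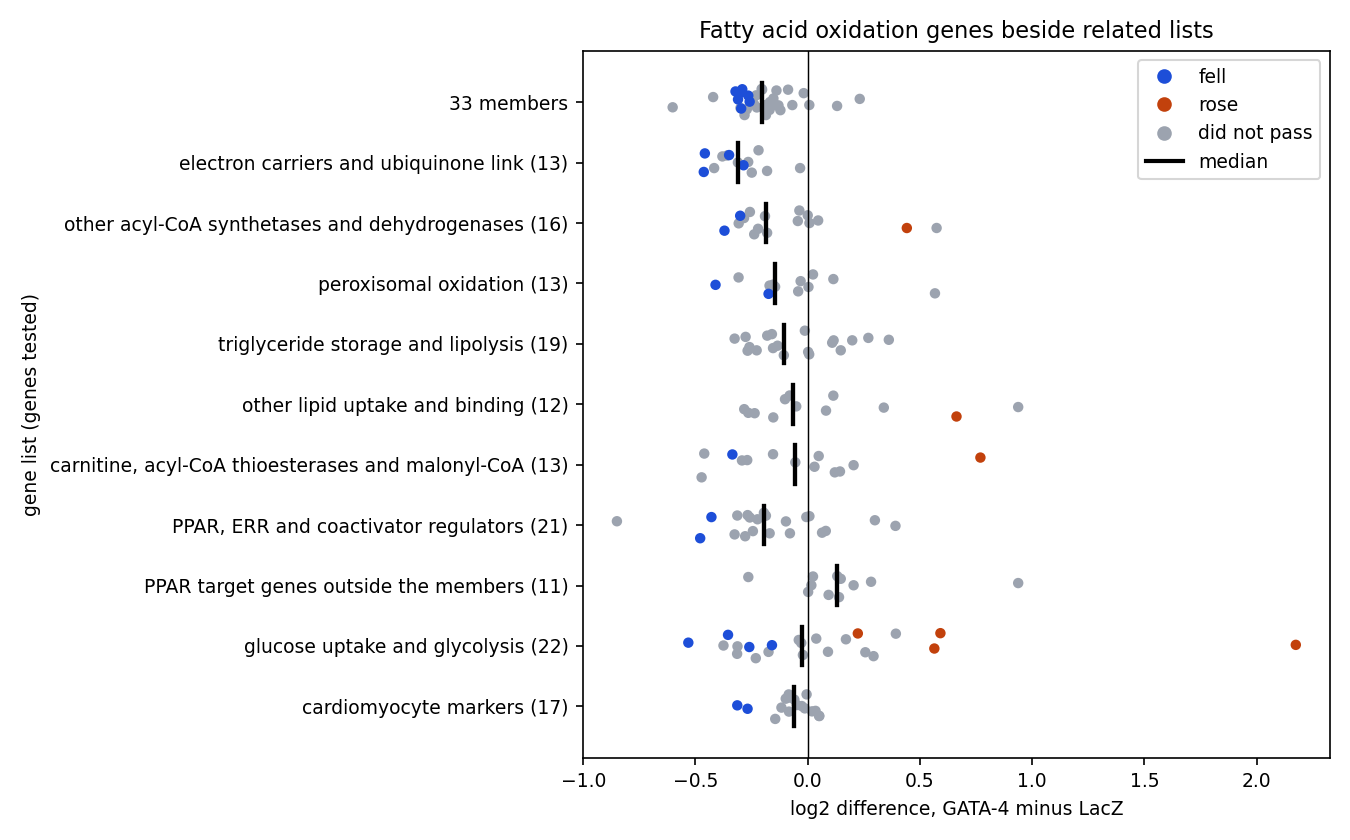
Log2 difference, GATA-4 minus LacZ, for the 33 members and 10 lists, with 1 point per gene tested (blue fell, orange rose, grey did not pass) and a black bar at the median. The members have a median of -0.20 and the list of electron carriers and the ubiquinone link -0.31, while the PPAR target genes outside the members have 0.13 and the cardiomyocyte markers -0.06.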

How the data were processed

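The authors deposited probe set intensities on a linear scale, which per the submitters' processing notes came from the Affymetrix program GCOS. The sources used here do not give its version, summary algorithm, scaling or detection calls. The members and lists were chosen with earlier results of these data known. Groups were taken from the source label, since all titles name GATA-4. Replicate numbers only name arrays. No pair of arrays held identical values.

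Of 31042 probe sets, besides 57 controls, 20826 listed 1 gene on GEO's platform annotation, 436 several and 9780 none. Symbols were updated by gene ID from RefSeq (GRCr8). The log2 intensities were quantile normalized (limma 3.58.1, R 4.3.3) and floored at 0. Probe sets above the 40th percentile of mean log2 intensity were fitted with lmFit and eBayes with an intensity trend. The procedure was run on simulated data with independent noise and no dim array. That run does not show how firm the calls are here. The brightest probe set stood for a gene. The text names every member (with each array for those past the threshold and the 2 largest differences of either sign among the rest), genes past the threshold in related lists (at most 4 each) and in marker lists (at most 3 each), and Gata4. Alternatives changed scaling, added constant, floor, filter, moderation, array weights (statmod 1.5.0), samples and the choice of probe set. The number of arrays limits the precision.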

Additional observations from a re-analysis of the deposited data

Results flagged for a closer look

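Arrays that stood apart within a group of 5 were looked for in the 33 members and Gata4, 68 groups in all, and chance marks about 1 in 20 groups. There were 5. GATA-4 array 1, the dim array, was the high one for Mlycd (11.09, with 10.12 the next) and Acads (11.11, with 10.34 the next), and the low one for Hadhb (13, with 13.2 the next). GATA-4 array 3 was low for Cd36 (11.32, with 11.83 the next), and LacZ array 1 was low for Acsl1 (12.57, with 12.69 the next). Acsl1 fell also without LacZ array 1. Mlycd and Acads were among the 17 members that fell without GATA-4 array 1, while Hadhb was not.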

How the results depend on the processing

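The count of members that fell was 7 of 33. It was 0 in the signals as deposited (6 at an unadjusted p under 0.05, limma), 0 without the intensity trend (11 at an unadjusted p under 0.05), 3 without a filter, 18 with array weights, 1 without GATA-4 arrays 4 and 5 (Acsl1), and 25 when median centring left out the dim array, a setting chosen after seeing the data. The share of all genes that fell, 2.66%, moved too, to 0%, 0.87%, 1.12%, 9.11%, 0.355% and 9.45% in these 6 settings. The count of members was 1 to 17 with single arrays left out, and 6 to 8 in the remaining alternatives. The cause of these shifts was not tested. No member rose under any of the 22 alternatives. The median difference of -0.20 was -0.30 as deposited, -0.30 under median centring and -0.37 when median centring left out the dim array. The median of all genes was then -0.05, -0.06 and -0.04, and the members' median was lower by 0.24, 0.24 and 0.33. Of 18625 probe sets 988 changed, against 9 as deposited, 619 without a filter, 539 without the trend, 2890 with array weights, 201 without GATA-4 arrays 4 and 5, 2616 when median centring left out the dim array, and 174 to 2849 with single arrays left out. The higher share of these calls was 57.3%, was 44.5% under median centring and 100% as deposited (9 of 9), and ran from 51.4% to 81.6% with single arrays left out. The Gata4 difference was 0.70 as deposited, with a limma adjusted p of 0.993. Members near 0 changed sign without passing. The Cpt1a difference was -0.069 as deposited, -0.071 under median centring, -0.14 without GATA-4 arrays 4 and 5, -0.00322 as a mean of its probe sets and -0.038 when median centring left out the dim array. Acacb was -0.30 without GATA-4 arrays 4 and 5, and Acacb and Lipe were -0.17 and -0.31 when median centring left out the dim array, where another Lipe probe set was the brightest. Fabp3 was 0.0016 with array weights. With single arrays left out Cpt1a ran from -0.11 to 0.12, Acacb from -0.11 to 0.42 and Lipe from -0.32 to 0.38. No paired analysis was possible because the labels number the arrays once through both groups, so that no replicate number is shared.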
